A study of Mus musculus with 11 samples.

Results

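The genes described here are those of the glucocorticoid system of the airway: the glucocorticoid receptor (Nr3c1), the mineralocorticoid receptor (Nr3c2), the enzyme Hsd11b1 and the target genes Fkbp5, Tsc22d3, Dusp1, Zbtb16, Sgk1, Klf9 and Hif3a. They were chosen by name, with no threshold on the measured values, and make up 10 of the 21899 mouse genes listed. All 10 were among the 14004 genes that reached a mean of 0.5 FPKM (fragments per length of exon and depth of sequencing) over the libraries and were tested. Hif3a reached that mean only through the OVA/LPS/GGsTop group, so its place among the tested genes already depended on where it was high. The study had also already named Hif3a as higher with GGsTop in these same data, so its call against vehicle is a description.

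The RNA-seq libraries came from the airway of wild-type mice, which the study describes as young adult male BALB/c, with 3 libraries for PBS, 4 for OVA/LPS/Vehicle and 4 for OVA/LPS/GGsTop. PBS mice were not sensitised and received only sterile saline. OVA/LPS/Vehicle mice were sensitised with ovalbumin in alum, challenged through the nose with ovalbumin and then with lipopolysaccharide (LPS), a model of a steroid-resistant asthma exacerbation, and received vehicle into the trachea. OVA/LPS/GGsTop mice went through the same steps and received GGsTop, an inhibitor of γ-glutamyl transferase, into the trachea instead of vehicle, and none of the groups is described as having been given a glucocorticoid. The replicates of the Vehicle group are labelled 12, 34, 56 and 78, and since no source used here says whether mice were pooled, the p-values measure the spread between libraries. The labels name trachea as the tissue, whereas the study describes airway dissected without it. Markers of airway epithelium were abundant in every library, with a summed level of 31870 to 54731 FPKM over 10 genes. Most of that sum was Scgb1a1, at 26145 to 47905 FPKM, so it does not show that the epithelial content was even. Bpifa1 of the same list ranged over 42.0 to 3518 FPKM in PBS, 1714 to 3717 FPKM in Vehicle and 29.1 to 4708 FPKM in GGsTop libraries. In bulk tissue such as this, fewer cells of a type and less RNA per cell cannot be told apart.

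Corticosterone, the main glucocorticoid of mice, binds the glucocorticoid receptor in the cytosol, where the unbound receptor is held by Hsp90 and its co-chaperones. The bound receptor moves to the nucleus and binds glucocorticoid response elements, which are paired hexamers facing each other across a short spacer, or it interferes with inflammatory transcription factors. In the airway this system is the target of inhaled steroids, and the level of its target genes is commonly used as a readout of receptor activity, although most of these genes also answer to other signals.

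The libraries held 15062762 to 18632382 fragments in the PBS group, 15501852 to 16710795 in the Vehicle group and 14513131 to 15777198 in the GGsTop group, as recovered from the FPKM, so that depth differed little. Other properties moved with the groups. The slope of log2 expression against GC content, per 10 percentage points, was -0.26 to -0.19 in the Vehicle group and 0.05 to 0.11 in the GGsTop group, and it reached 0.53 in PBS 3 against 0.05 and 0.06 in the other PBS libraries. Mitochondrial transcripts took 14.5 to 19.5% of the expression total in the Vehicle group, 7.40 to 11.1% in the GGsTop group and 2.08 to 10.1% in the PBS group, and their part in the results was not tested. Each comparison below was therefore also made after a correction for GC content.

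Promoter windows from 250 bases before to 50 bases after the start of transcription were taken from RefSeq on GRCm38.p6, which held 15 windows for 8 of the 10 genes and had no entry for Nr3c1 and Zbtb16. The windows were searched on both strands for the full response element, searched as AGAACA and TGTTCT with any 3 bases between them, for the hexamer TGTTCT, which is contained in the full element, and for the E-box CACGTG, through which the circadian clock acts on its own targets. The windows shown are the Sgk1 window with a full element and, for Fkbp5, Dusp1 and Tsc22d3, the window that held a hexamer or E-box, with every match in capitals.
Sgk1, chr10:21993640-21993939, plus strand: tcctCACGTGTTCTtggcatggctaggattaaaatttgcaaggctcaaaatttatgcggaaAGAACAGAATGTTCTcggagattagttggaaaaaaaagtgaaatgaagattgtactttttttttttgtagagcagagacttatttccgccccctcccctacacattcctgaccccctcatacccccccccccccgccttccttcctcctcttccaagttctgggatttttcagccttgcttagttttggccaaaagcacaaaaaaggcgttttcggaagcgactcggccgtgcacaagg
Fkbp5, chr17:28486100-28486399, minus strand: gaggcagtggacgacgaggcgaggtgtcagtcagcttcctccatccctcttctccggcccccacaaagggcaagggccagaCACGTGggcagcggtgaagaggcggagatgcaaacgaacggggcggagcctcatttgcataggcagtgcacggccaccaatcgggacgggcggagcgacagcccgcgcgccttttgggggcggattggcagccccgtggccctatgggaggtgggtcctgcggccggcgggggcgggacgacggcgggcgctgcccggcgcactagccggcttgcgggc
Dusp1, chr17:26508423-26508722, minus strand: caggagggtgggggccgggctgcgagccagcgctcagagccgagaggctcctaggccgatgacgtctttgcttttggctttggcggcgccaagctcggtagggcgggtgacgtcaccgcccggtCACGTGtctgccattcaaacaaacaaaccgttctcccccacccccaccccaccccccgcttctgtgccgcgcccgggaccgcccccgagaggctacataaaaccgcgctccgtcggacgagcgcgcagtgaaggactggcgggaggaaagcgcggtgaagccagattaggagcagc
Tsc22d3, chrX:140600473-140600772, minus strand: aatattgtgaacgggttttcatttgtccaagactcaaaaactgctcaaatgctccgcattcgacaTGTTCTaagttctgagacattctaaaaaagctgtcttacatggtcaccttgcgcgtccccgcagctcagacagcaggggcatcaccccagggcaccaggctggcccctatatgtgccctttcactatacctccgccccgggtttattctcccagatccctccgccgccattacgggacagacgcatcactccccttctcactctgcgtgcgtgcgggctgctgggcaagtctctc

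In the Sgk1 window the full element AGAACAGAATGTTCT lay 189 to 175 bases before the start, and further upstream an E-box at 246 to 241 overlapped a hexamer at 242 to 237. Of all 32851 mouse windows searched in the same way, 3 (0.00913%) held a full element, 19.0% held the hexamer and 7.15% held the E-box. The Fkbp5 window held an E-box at 169 to 164 bases before the start, the Dusp1 window one at 126 to 121, and the Tsc22d3 window the hexamer at 185 to 180. Over the 15 windows, 1 held the full element, 4 the hexamer and 3 the E-box, and the windows of Nr3c2, Klf9, Hsd11b1 and Hif3a held none of the 3 motifs. A match here is a string of letters in a short window and was not tied to binding.

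Per length of transcript the genes spanned a wide range of levels. Averaged over the 11 libraries, Dusp1 was highest at 110.3 FPKM, followed by Tsc22d3 at 66.9, Sgk1 at 36.1, Klf9 at 35.99, Hsd11b1 at 25.9 and Nr3c1 at 24.5 FPKM. Zbtb16 at 3.17, Nr3c2 at 3.03 and Fkbp5 at 2.75 FPKM formed a lower set, and Hif3a was lowest at 0.54 FPKM. Neighbours in this order, such as Sgk1 and Klf9, Hsd11b1 and Nr3c1, or Zbtb16, Nr3c2 and Fkbp5, overlapped in their ranges over libraries and are not separated by their spread. The plot of FPKM by library shows which genes changed in one of the OVA/LPS groups and which changed in both.

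**Figure D1:**
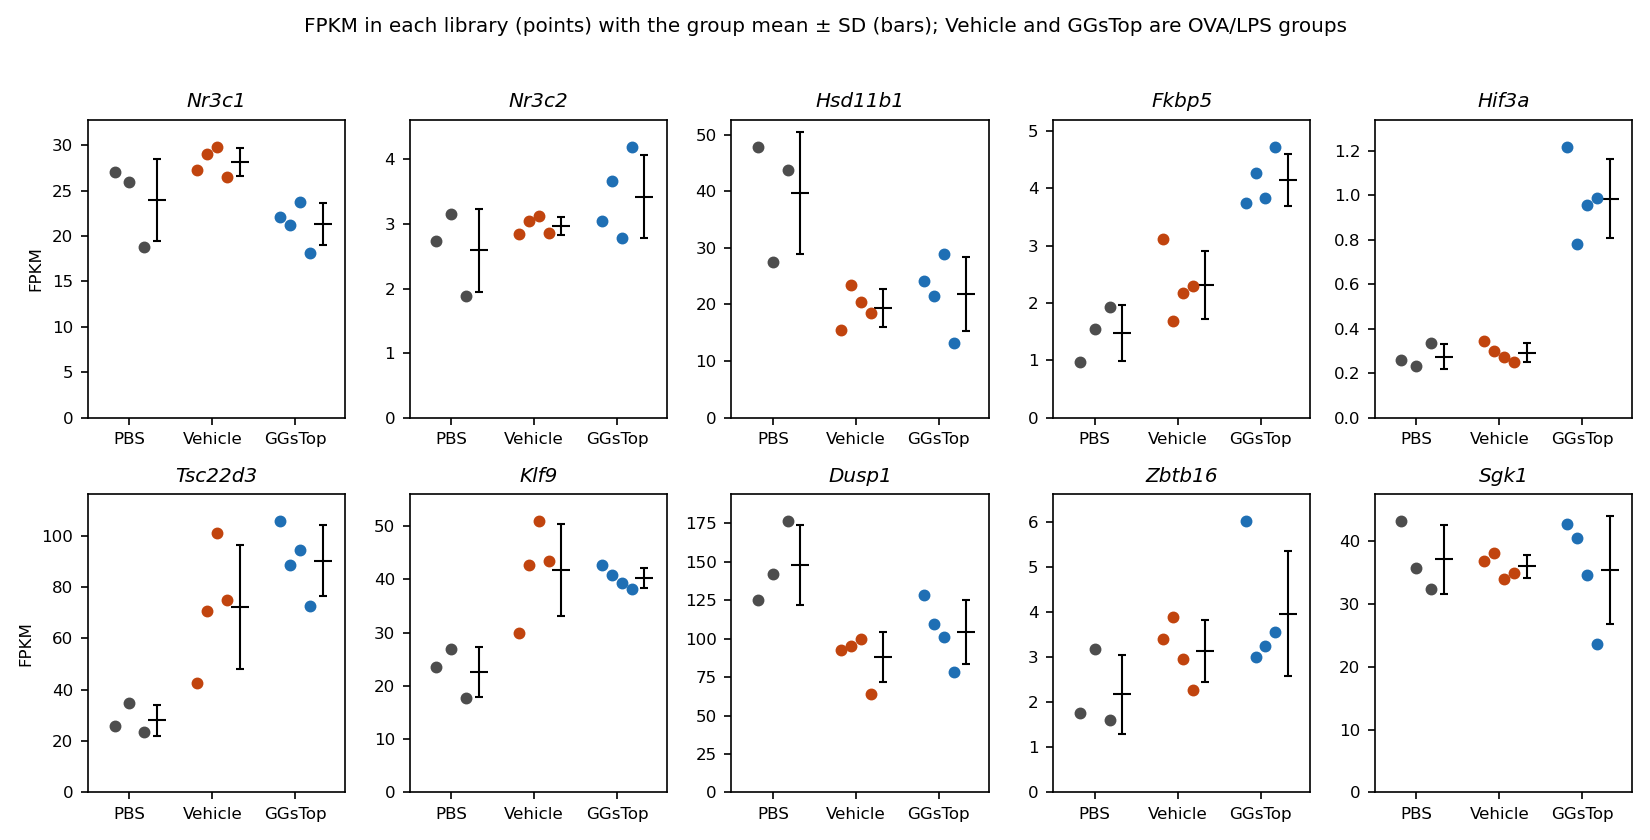
FPKM (vertical axis, from 0, with its own scale for each gene) of the 10 genes in 3 PBS libraries and in 4 libraries of each OVA/LPS group, with a point for each library and bars for the mean ± SD. Fkbp5 and Hif3a stood highest in the 4 GGsTop libraries, Tsc22d3 and Klf9 stood above PBS in both OVA/LPS groups, Dusp1 and Hsd11b1 were lower in the Vehicle libraries than in PBS, and Sgk1 overlapped across all groups.

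The receptors themselves were compared first. Nr3c1 (ENSMUSG00000024431) was at 27.3, 29.0, 29.8 and 26.5 FPKM in Vehicle 12, 34, 56 and 78 and at 22.1, 21.2, 23.7 and 18.2 FPKM in GGsTop 1 to 4. It was at 27.1, 25.9 and 18.8 FPKM in PBS 1 to 3. All 4 GGsTop libraries lay below all 4 Vehicle libraries, while the PBS libraries overlapped with both groups. The log2 fold change, here the difference in mean log2(FPKM + 1), was -0.39 ± 0.12 (SE) for GGsTop against Vehicle, which did not pass limma's test over all genes tested (Benjamini-Hochberg adjusted p = 0.0653). The transcript of Nr3c1 is poor in GC, at 42.2%, and after the GC correction the difference was -0.12 (adjusted p = 0.391 by limma). Between Vehicle and PBS it was 0.24 ± 0.13 (adjusted p = 0.164 by limma), and this turned to -0.15 after the GC correction. No direction is therefore given for the receptor transcript.

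Nr3c2 (ENSMUSG00000031618), the mineralocorticoid receptor, which corticosterone also occupies where it is not inactivated, was low in every group. It ranged over 1.89 to 3.15 FPKM in PBS, 2.84 to 3.12 FPKM in Vehicle and 2.78 to 4.20 FPKM in GGsTop libraries, and the 3 groups overlapped. The log2 fold change was 0.15 for GGsTop against Vehicle, with a 95% interval of -0.15 to 0.44, and 0.16 for Vehicle against PBS, with an interval of -0.16 to 0.47.

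Hsd11b1 (ENSMUSG00000016194), which regenerates active corticosterone from its inactive keto form inside the cell, was lower in the OVA/LPS/Vehicle group than in PBS. It was at 47.9, 27.5 and 43.7 FPKM in PBS 1 to 3 and at 15.5, 23.5, 20.4 and 18.5 FPKM in Vehicle 12, 34, 56 and 78. The GGsTop libraries 1 to 4 were at 24.1, 21.4, 28.8 and 13.1 FPKM. Every Vehicle library lay below every PBS library, and the GGsTop libraries overlapped with both groups. The PBS mean was 2.04-fold that of the Vehicle group, a log2 fold change of -0.97 ± 0.25 (adjusted p = 0.0144 by limma), and it was -1.30 after the GC correction (adjusted p = 0.0119 by limma). The call was lost without PBS 1, where the change was -0.82 (adjusted p = 0.0512 by limma), and without PBS 3, where it was -0.88 (adjusted p = 0.0606 by limma). For GGsTop against PBS the change was -0.84 ± 0.25 (adjusted p = 0.096 by limma), and it passed without PBS 2, at -1.08 (adjusted p = 0.0242 by limma), and without GGsTop 3, at -0.99 (adjusted p = 0.0479 by limma). GGsTop and Vehicle did not differ detectably, with a change of 0.12 and a 95% interval of -0.39 to 0.64.

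H6pd, which supplies Hsd11b1 with its cofactor in the endoplasmic reticulum, was also lower in the Vehicle group, at 19.2 to 24.2 FPKM against 31.7 to 57.6 FPKM in PBS. Its log2 fold change was -0.88 ± 0.17 (adjusted p = 0.0055 by limma) and -0.53 after the GC correction (adjusted p = 0.0196 by limma). It was the 1 gene that fell among the 7 tested of a list of 11 for steroid metabolism and transport, beside 22.1% of all genes tested. Of the 7, 0 rose in that comparison (beside 15.9% of all genes), with 0 also rising at an unadjusted p under 0.05 and 0 under limma voom on recovered fragments. Hsd11b2, which inactivates corticosterone, was at a mean of 1.22 FPKM in PBS, 0.66 FPKM in Vehicle and 1.03 FPKM in GGsTop libraries, with a change of -0.43 for Vehicle against PBS (adjusted p = 0.157 by limma).

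Fkbp5 and Hif3a were the target genes that were higher after GGsTop than after vehicle. Fkbp5 (ENSMUSG00000024222), a co-chaperone that lowers the affinity of the receptor for its hormone and is itself strongly induced by it, was at 3.75, 4.27, 3.84 and 4.72 FPKM in GGsTop 1 to 4. It was at 3.11, 1.69, 2.17 and 2.29 FPKM in Vehicle 12, 34, 56 and 78 and at 0.97, 1.55 and 1.93 FPKM in PBS 1 to 3. All GGsTop libraries lay above all others, and the Vehicle and PBS libraries overlapped. These values rested on 138 to 662 fragments per library.

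The GGsTop mean of Fkbp5 was 1.79-fold the Vehicle mean, a log2 fold change of 0.65 ± 0.15 (adjusted p = 0.0312 by limma). The call is close to the threshold. After the GC correction the change was 0.58 (adjusted p = 0.0517 by limma), and with 1 of the 8 libraries left out the change stayed between 0.55 and 0.75 while the adjusted p from limma ranged from 0.0327 without Vehicle 12 to 0.0985 without Vehicle 56. It passed only without Vehicle 12, in which Fkbp5 was highest of its group. Leaving out Vehicle 34 gave an adjusted p of 0.0855 by limma, Vehicle 78 gave 0.0734, and leaving out GGsTop 1, 2, 3 or 4 gave 0.082, 0.07, 0.0651 and 0.0543.

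Against PBS, Fkbp5 was 2.80-fold higher in the GGsTop group, a log2 fold change of 1.07 ± 0.17 (adjusted p = 0.0139 by limma), and the call was lost without PBS 1, at 0.91 (adjusted p = 0.0689 by limma). With the replicate number as a block, over replicates 1 to 3 of both groups and so without GGsTop 4, the change was 1.01 (adjusted p = 0.0525 by limma, and 0.113 without the block on the same 6 libraries), and with the GC correction added to the block it was 1.05 (adjusted p = 0.0259 by limma). The change of Vehicle against PBS was 0.42 ± 0.17 (adjusted p = 0.0636 by limma), and it passed after the GC correction, at 0.52 (adjusted p = 0.0329 by limma), without PBS 3, at 0.55 (adjusted p = 0.0457 by limma), and without Vehicle 34, at 0.52 (adjusted p = 0.0439 by limma). The 3 comparisons share groups and are not independent of each other.

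Hif3a (ENSMUSG00000004328), a partner and inhibitor of the hypoxia-inducible factors that glucocorticoids induce in several tissues, was at 1.22, 0.78, 0.95 and 0.99 FPKM in GGsTop 1 to 4. In Vehicle 12, 34, 56 and 78 it was at 0.35, 0.30, 0.27 and 0.25 FPKM, and in PBS 1 to 3 at 0.26, 0.23 and 0.34 FPKM. The lowest GGsTop library stood above the highest of all the others, and Vehicle and PBS libraries overlapped. These levels rested on 76 to 123 fragments per library in the GGsTop group, 28 to 36 in the Vehicle group and 24 to 42 in PBS. The GGsTop mean was 3.37-fold the Vehicle mean and 3.59-fold the PBS mean.

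On the log2(FPKM + 1) scale, which compresses low genes, the change of Hif3a was 0.62 ± 0.10 against Vehicle (adjusted p = 0.0163 by limma) and 0.64 ± 0.11 against PBS (adjusted p = 0.0177 by limma). With limma voom on recovered fragments the change against Vehicle was 1.70 (adjusted p = 0.0129), and after the GC correction on the FPKM scale it was 0.54 (adjusted p = 0.0323 by limma). The call against Vehicle was lost without Vehicle 34 (adjusted p = 0.0549 by limma), without Vehicle 56 (0.0709) and without GGsTop 1 (0.0714), at changes of 0.62, 0.61 and 0.56. Against PBS it was lost without PBS 1 (adjusted p = 0.0805 by limma), PBS 3 (0.0523) and GGsTop 1 (0.0616), at changes of 0.63, 0.67 and 0.58, and on the 6 libraries of the replicate block, at 0.63 (adjusted p = 0.0851 by limma with the block and 0.18 without it). Between Vehicle and PBS the change was 0.02, with a 95% interval of -0.22 to 0.26.

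Tsc22d3 and Klf9 were higher in both OVA/LPS groups than in PBS. Tsc22d3 (ENSMUSG00000031431), also called GILZ, is a leucine zipper protein through which glucocorticoids restrain NF-κB and AP-1. It was at 25.7, 34.99 and 23.7 FPKM in PBS 1 to 3, at 42.5, 70.7, 101 and 75.1 FPKM in Vehicle 12, 34, 56 and 78, and at 106, 88.8, 94.6 and 72.5 FPKM in GGsTop 1 to 4. Every library of the OVA/LPS groups lay above every PBS library, and the Vehicle and GGsTop libraries overlapped.

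The Vehicle mean of Tsc22d3 was 2.57-fold the PBS mean, a log2 fold change of 1.29 ± 0.25 (adjusted p = 0.00525 by limma), and 1.25 after the GC correction (adjusted p = 0.0109 by limma). The call held with each of the 7 libraries left out, with changes of 1.11 to 1.52. The GGsTop mean was 3.21-fold the PBS mean, a change of 1.65 ± 0.25 (adjusted p = 0.0128 by limma). That call was lost without PBS 1 (adjusted p = 0.0691 by limma), PBS 3 (0.0586) or GGsTop 1 (0.0516), at changes of 1.60, 1.55 and 1.58, and held with the replicate block, at 1.75 (adjusted p = 0.0187 by limma). GGsTop against Vehicle gave 0.37 ± 0.23 (adjusted p = 0.295 by limma), with a 95% interval of -0.14 to 0.88, and 0.14 without Vehicle 12, the library in which Tsc22d3 was lowest of its group.

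Klf9 (ENSMUSG00000033863), a Krüppel-like repressor that is an early target of the receptor and of thyroid hormone, was also higher in both OVA/LPS groups than in PBS. It was at 23.5, 26.9 and 17.6 FPKM in PBS 1 to 3, at 30.0, 42.7, 50.9 and 43.4 FPKM in Vehicle 12, 34, 56 and 78, and at 42.7, 40.8, 39.3 and 38.2 FPKM in GGsTop 1 to 4. Both OVA/LPS groups lay wholly above PBS and overlapped with each other. The Vehicle mean was 1.84-fold the PBS mean, a log2 fold change of 0.85 ± 0.17 (adjusted p = 0.00625 by limma), which held with each of the 7 libraries left out, at 0.69 to 0.99, and after the GC correction, at 0.77 (adjusted p = 0.0127 by limma).

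The GGsTop mean of Klf9 was 1.78-fold the PBS mean, a change of 0.82 ± 0.17 (adjusted p = 0.0333 by limma). This call was lost without PBS 1 (adjusted p = 0.107 by limma), PBS 3 (0.123), GGsTop 1 (0.0938), GGsTop 2 (0.0832) or GGsTop 4 (0.0611), at changes of 0.66 to 0.85, and on the 6 libraries of the replicate block, at 0.84 (adjusted p = 0.0551 by limma with the block and 0.139 without it), but not with the block and the GC correction together, at 0.81 (adjusted p = 0.0295 by limma). GGsTop and Vehicle did not differ detectably for Klf9, with a change of -0.03 and a 95% interval of -0.38 to 0.33.

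Thyroid markers, at a summed 0.54 to 1.68 FPKM in PBS and GGsTop libraries, reached 92.9, 176 and 315 FPKM in Vehicle 12, 34 and 56 and were at 0.79 FPKM in Vehicle 78. In Vehicle 12, 34, 56 and 78, Tsc22d3 was at 42.5, 70.7, 101 and 75.1 FPKM and Klf9 at 30.0, 42.7, 50.9 and 43.4 FPKM. Adipocyte markers were highest in Vehicle 12, at a summed 963 FPKM over 10 genes, against 305 to 500 FPKM in the other Vehicle libraries, 112 to 349 FPKM in PBS and 70.8 to 334 FPKM in the GGsTop group. None of the adipocyte markers was at 0 in all libraries, and the part of the thyroid and the adipocyte markers in the differences was not tested.

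Dusp1 (ENSMUSG00000024190), the phosphatase MKP-1, which switches off p38 and JNK and is induced by glucocorticoids as well as by stress and growth signals, was lower in the Vehicle group than in PBS. It was at 125, 142 and 176 FPKM in PBS 1 to 3 and at 92.7, 95.5, 99.6 and 64.0 FPKM in Vehicle 12, 34, 56 and 78. In GGsTop 1 to 4 it was at 129, 109.7, 101 and 78.2 FPKM. All Vehicle libraries lay below all PBS libraries, and the GGsTop libraries overlapped with both. The log2 fold change of Vehicle against PBS was -0.75 ± 0.20 (adjusted p = 0.0151 by limma). It was -0.53 after the GC correction (adjusted p = 0.0659 by limma) and -0.62 without PBS 3 (adjusted p = 0.0658 by limma), the library with the steep GC slope, and the call was lost in both cases. GGsTop against Vehicle gave 0.24, with a 95% interval of -0.16 to 0.65, and GGsTop against PBS -0.51 (adjusted p = 0.183 by limma).

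Zbtb16 (ENSMUSG00000066687), the zinc finger protein PLZF, and Sgk1 (ENSMUSG00000019970), a kinase that raises sodium uptake through the epithelial sodium channel, passed the test in no comparison of all libraries. Zbtb16 ranged over 1.59 to 3.19 FPKM in PBS, 2.27 to 3.88 FPKM in Vehicle and 3.01 to 6.01 FPKM in GGsTop libraries, with GGsTop 1 above the rest of its group. Its log2 fold change of GGsTop against PBS was 0.64 ± 0.23 (adjusted p = 0.148 by limma), and without PBS 2, the highest of its group, it was 0.85 (adjusted p = 0.0359 by limma). Vehicle against PBS gave 0.39 ± 0.23 (adjusted p = 0.18 by limma), and without PBS 2 it was 0.61 (adjusted p = 0.0451 by limma).

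Sgk1, the gene whose window holds the full response element, ranged over 32.4 to 43.1 FPKM in PBS, 33.95 to 38.1 FPKM in Vehicle and 23.6 to 42.8 FPKM in GGsTop libraries, and the 3 groups overlapped. Its change was -0.06 for GGsTop against Vehicle, with a 95% interval of -0.42 to 0.31, and -0.04 for Vehicle against PBS, with an interval of -0.43 to 0.36. The values are compatible with no change and with any other change inside these intervals.

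Counted over the 10 genes, GGsTop against Vehicle had 2 higher (beside 6.9% of all 14004 genes tested) and 0 lower (beside 1.81%) by limma's test, or 8.71% of all genes in either direction. Hif3a was tested only through the group where it is high, so the count is a description, and without it 1 of 9 was higher. At an unadjusted p under 0.05, 2 were higher and 1 lower, beside 30.8% of all genes in either direction, and limma voom on recovered fragments also called 2. The groups did not overlap for 3 of the 10, with 2 higher (17.3% of all genes) and 1 lower (12.4%), together 29.7%. After the GC correction 1 of the 10 was called, beside 2.24% of all genes. That gene was Hif3a, and Fkbp5 was not called there (adjusted p = 0.0517 by limma).

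In the comparison of Vehicle with PBS, 2 were higher (15.9% of all genes) and 2 lower (22.1%), together beside 38% of all genes called. The groups of the same 4 genes did not overlap, with 2 higher (18.7% of all genes) and 2 lower (25.4%), together 44.1%. After the GC correction 4 of the 10 were called, beside 21.5%. Before that correction the share of the 10 called is near that of all genes. The genes are few, and the count after it is a description.

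In the comparison of GGsTop with PBS, 4 were higher (2.06% of all genes) and 0 lower (0.821%), beside 2.88% in either direction. The groups of these 4 genes did not overlap (7.22% of all genes higher, 7.54% lower, 14.8% together). Hif3a was again among them, and without it 3 of 9 were higher. At an unadjusted p under 0.05 there were 5 higher and 2 lower, beside 20.5% of all genes in either direction, and limma voom called 4. After the GC correction 4 were called, beside 4.35%. The median log2 fold change of the 10 was 0.19 for GGsTop against Vehicle, 0.20 for Vehicle against PBS and 0.47 for GGsTop against PBS, beside medians over all tested genes of 0.03, -0.01 and 0.01. Without Hif3a the medians were 0.15, 0.24 and 0.31. The genes are few, and these medians are a description.

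**Figure D2:**
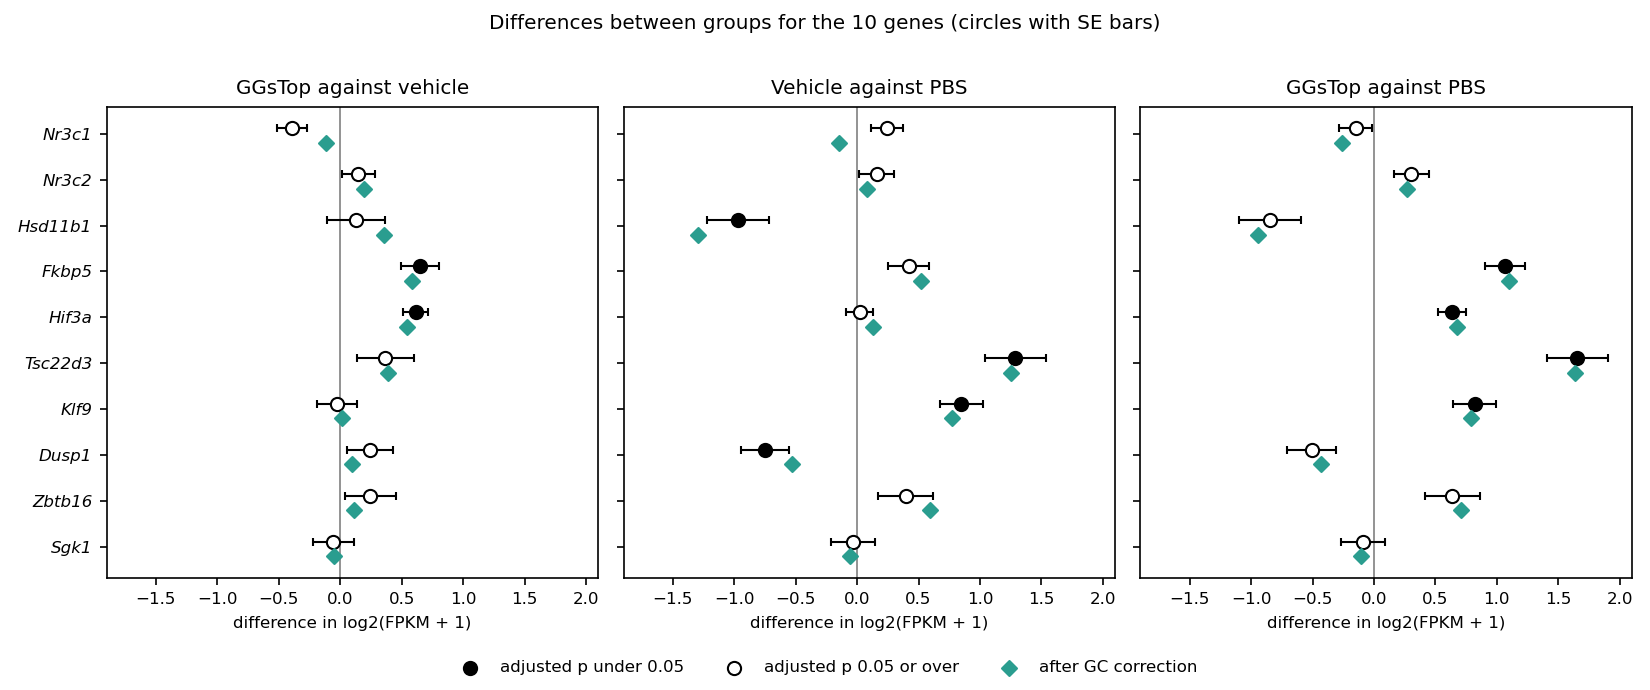
Difference in mean log2(FPKM + 1) (horizontal axis) of the 10 genes for the 3 comparisons, with SE bars, filled circles for a limma adjusted p under 0.05 and diamonds for the value after GC correction. Fkbp5 at 0.65 and Hif3a at 0.62 passed for GGsTop against Vehicle, Tsc22d3 at 1.29 and Klf9 at 0.85 were higher and Hsd11b1 at -0.97 and Dusp1 at -0.75 lower for Vehicle against PBS, and the diamond of Nr3c1 crosses 0 in that comparison.

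The plot of adjusted p-values with single libraries left out separates calls that hold from those at the threshold. Tsc22d3 and Klf9 in Vehicle against PBS stayed under 0.05 in 7 of 7 fits. For GGsTop against Vehicle, Hif3a did so in 5 of 8 and Fkbp5 in 1 of 8 fits. For all genes together the count called in that comparison fell from 1220 to between 24 and 1052. It was still 1052 without GGsTop 4, a fit in which the call of Fkbp5 was lost as well.

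**Figure D3:**
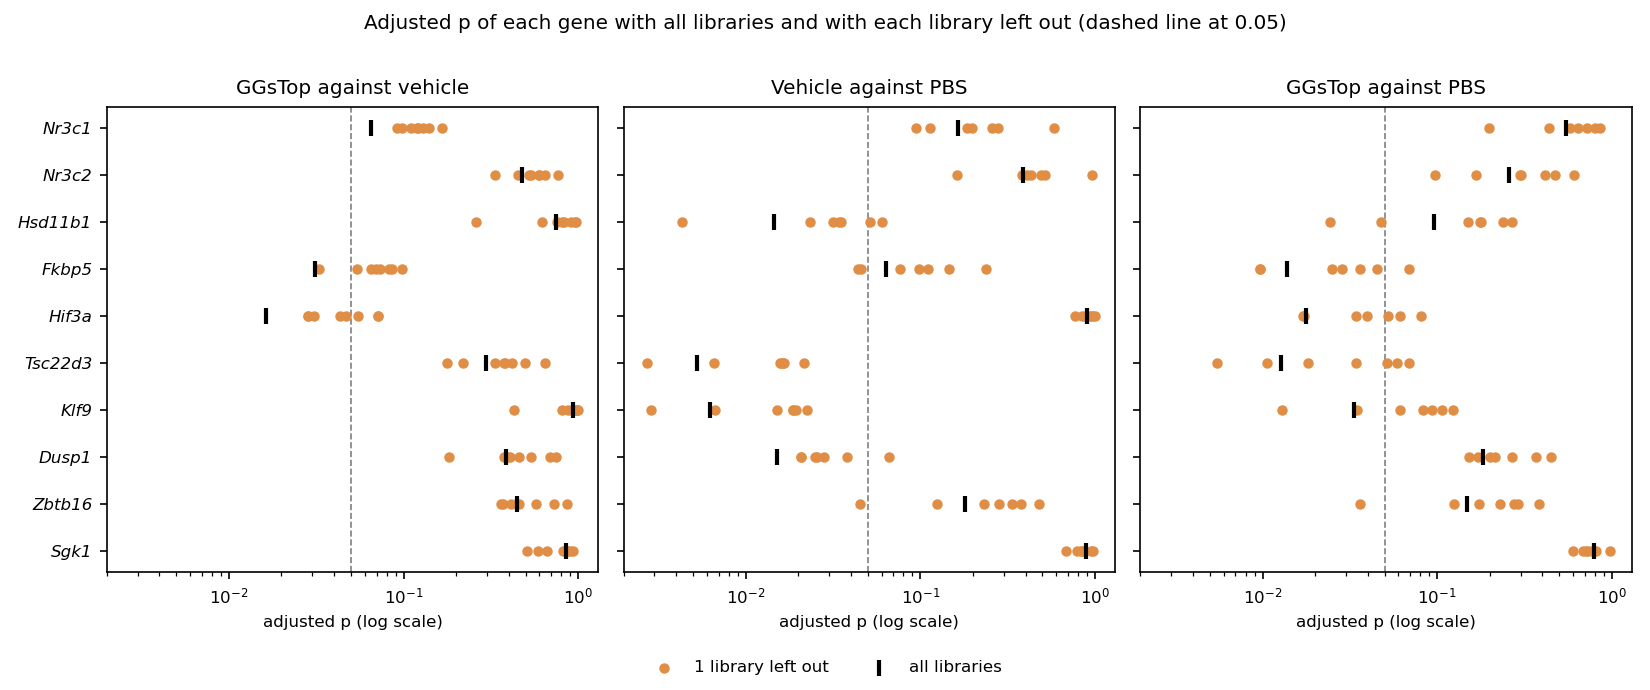
Adjusted p from limma (horizontal log axis) of each gene with all libraries (black bar) and with each library of the comparison left out in turn (orange points), with a dashed line at 0.05. The points of Tsc22d3 and Klf9 lie left of the line for Vehicle against PBS, at 0.0216 and 0.0224 at most, and those of Fkbp5 for GGsTop against Vehicle lie mostly right of it.

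Of 13 chaperones and co-chaperones that hold the unbound receptor, 7 rose and 1 fell in the Vehicle group against PBS, beside 15.9% and 22.1% of all genes tested. Hsp90aa1, the stress-inducible Hsp90, was at 62.4 to 133 FPKM in PBS and 216 to 367 FPKM in Vehicle libraries, a log2 fold change of 1.45 ± 0.28 (adjusted p = 0.00535 by limma). Ptges3, the co-chaperone p23, was at 30.1 to 51.6 FPKM in PBS and 73.1 to 98.2 FPKM in Vehicle libraries, a change of 1.04 ± 0.18 (adjusted p = 0.004 by limma). For both genes the groups were apart. With the GC correction 5 rose and 1 fell, and 0 fell without PBS 3, Vehicle 34 or Vehicle 78. Between GGsTop and Vehicle, 0 of the 13 passed limma's test in either direction, with 1 higher and 0 lower at an unadjusted p under 0.05 and 0 by limma voom. Against PBS, 4 rose in the GGsTop group (beside 2.06% of all genes), but 0 did with the replicate block or without PBS 1, PBS 3, GGsTop 1 or GGsTop 4, and 1 without GGsTop 2.

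Of 4 other steroid receptors listed, 2 were tested, and Esr2 fell in Vehicle against PBS, at -0.68 ± 0.18 (adjusted p = 0.0159 by limma). Esr2 was low, at 1.44 to 2.42 FPKM in PBS and 0.57 to 1.23 FPKM in Vehicle libraries. Its call was lost without PBS 1 and without PBS 3. Of all genes tested, 22.1% fell in that comparison.

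A wider list of 36 genes that glucocorticoids induce in other tissues, which shares no gene with the 10, had 34 in the fit. With GGsTop against Vehicle, 6 of the 34 rose and 0 fell, beside 6.9% and 1.81% of all genes tested. At an unadjusted p under 0.05, 9 were higher and 4 lower, beside 30.8% of all genes in either direction, and limma voom called 6 and 0. Per1, a period gene of the clock that carries a response element of its own in mice, was at 32.7 to 48.8 FPKM in GGsTop, 7.58 to 18.6 FPKM in Vehicle and 9.34 to 20.5 FPKM in PBS libraries, and its log2 fold change against Vehicle was 1.45 ± 0.27 (adjusted p = 0.0198 by limma). Map3k6, a stress kinase, was at 6.82 to 12.4 FPKM in GGsTop, 2.87 to 4.28 FPKM in Vehicle and 3.09 to 4.48 FPKM in PBS libraries, a change of 1.19 ± 0.18 (adjusted p = 0.0128 by limma). For Per1 and Map3k6 the GGsTop libraries stood above all others.

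Scnn1a, the alpha subunit of the epithelial sodium channel, was at 56.3 to 67.0 FPKM in GGsTop, 31.0 to 36.6 FPKM in Vehicle and 48.6 to 83.0 FPKM in PBS libraries. It fell in Vehicle against PBS, at -0.87 ± 0.16 (adjusted p = 0.0044 by limma), and was higher with GGsTop than with vehicle, at 0.86 ± 0.15 (adjusted p = 0.0181 by limma). Crispld2, a secreted protein of airway smooth muscle that steroids raise, had the same order, at -1.13 ± 0.21 (adjusted p = 0.0048 by limma) and 0.85 ± 0.20 (adjusted p = 0.0304 by limma). It was at 20.6 to 39.1 FPKM in GGsTop, 11.2 to 14.2 FPKM in Vehicle and 25.1 to 36.6 FPKM in PBS libraries, highest in GGsTop 4. Markers of airway smooth muscle were at a summed 491 to 1184 FPKM, 496 to 543 FPKM and 617 to 810 FPKM over 7 genes in the same groups, also highest in GGsTop 4. Of the 6 markers tested, 0 rose and 2 fell in Vehicle against PBS and 1 rose with GGsTop against Vehicle, and their part in the change of Crispld2 was not tested. Both comparisons share the Vehicle libraries, so a low Vehicle value moves both. The other 2 that rose with GGsTop, Arrdc2 at 0.88 (adjusted p = 0.0242 by limma) and Foxo3 at 0.46 (adjusted p = 0.0264 by limma), are named here after their values were seen.

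The count of 6 depended on the libraries and on the correction. With the GC correction 2 of the 34 rose, Scnn1a (adjusted p = 0.0304 by limma) and Map3k6 (adjusted p = 0.0323 by limma). It was 2 without Vehicle 34, 3 without GGsTop 2 and 1 without each of Vehicle 56, GGsTop 1 and GGsTop 3. With array weights 10 rose and 4 fell. The median change of the 34 was 0.06, beside 0.03 over all genes tested.

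In Vehicle against PBS, 7 of the 34 rose and 4 fell, and 2 fell without PBS 3. Of all genes tested 15.9% rose and 22.1% fell, so the share of the 34 called is not above that of all genes. Fam107a rose from 1.08 to 1.49 FPKM in PBS to 2.40 to 3.78 FPKM in Vehicle libraries, a log2 fold change of 0.82 ± 0.15 (adjusted p = 0.0049 by limma), and the GGsTop libraries, at 3.72 to 5.83 FPKM, were above PBS by 1.31 ± 0.15 (adjusted p = 0.003 by limma). Against PBS, 6 of the 34 rose in the GGsTop group and 0 fell, beside 2.06% and 0.821% of all genes. At an unadjusted p under 0.05, 12 were higher and 1 lower, beside 20.5% of all genes in either direction, and limma voom called 5 and 0. That count was 2 with the replicate block and 7 with the block and the GC correction, and it was 1 without PBS 1 or GGsTop 1, 2 without PBS 3, 3 without GGsTop 2 and 11 without PBS 2.

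**Figure D4:**
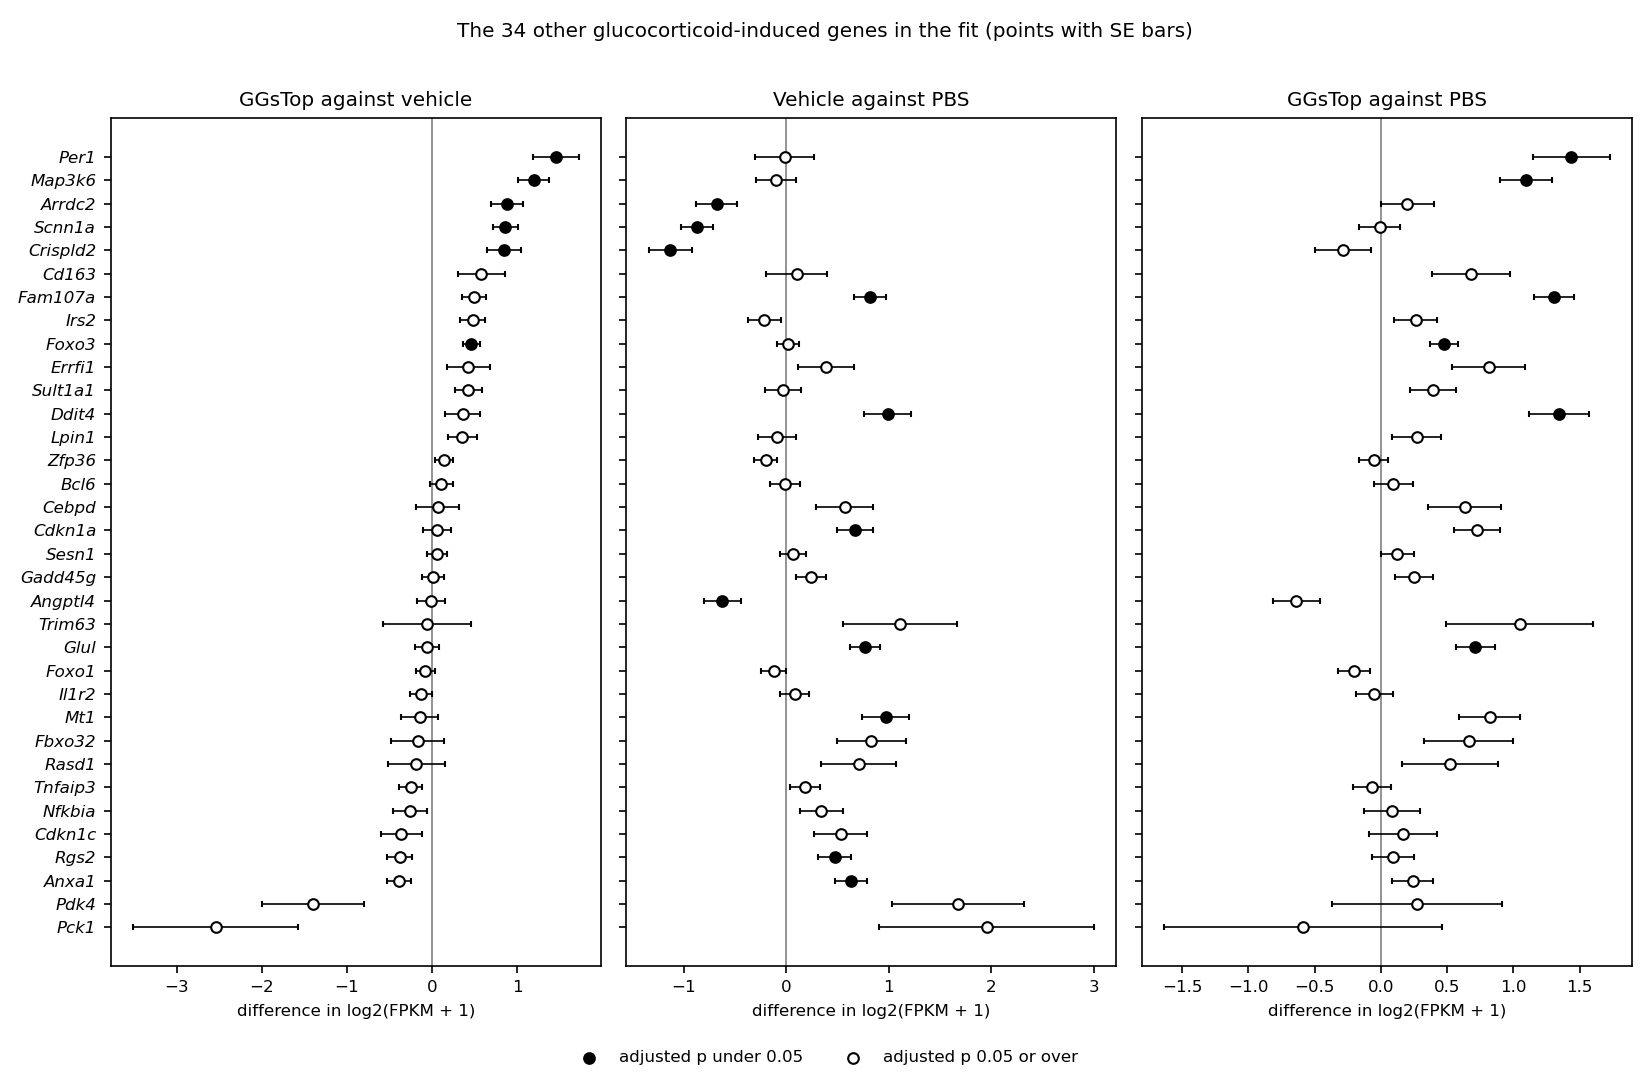
Difference in mean log2(FPKM + 1) (horizontal axis, with its own range in each panel) of the 34 other glucocorticoid-induced genes for the 3 comparisons, ordered by the value for GGsTop against Vehicle, with SE bars and filled points for a limma adjusted p under 0.05. Per1 at 1.45 and Map3k6 at 1.19 head the list for GGsTop against Vehicle, and Scnn1a and Crispld2 lie on opposite sides of 0 in the first and second panels.

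Among 20 cytokine, chemokine and adhesion genes that the receptor represses, 16 were tested. With GGsTop against Vehicle, 5 fell (beside 1.81% of all genes tested) and 0 rose (6.9%), with 7 lower and 0 higher at an unadjusted p under 0.05 and 5 and 0 by limma voom. The 5 were Ccl20, Cxcl1, Cxcl2, Cxcl5 and Vcam1. The study had already reported all but Vcam1 as lower with GGsTop in these same data, so the count is a description. The neutrophil attractant Cxcl5 was at 39.0 to 73.7 FPKM in Vehicle libraries, 0.43 to 2.94 FPKM in GGsTop libraries and 0.89 to 4.24 FPKM in PBS, a log2 fold change of -4.74 ± 0.40 (adjusted p = 0.0012 by limma). Ccl20 was at 11.3 to 26.3 FPKM in Vehicle and 0.89 to 3.85 FPKM in GGsTop libraries, a change of -2.73 ± 0.36 (adjusted p = 0.0084 by limma), and Cxcl1 at 4.48 to 10.5 FPKM and 1.55 to 2.49 FPKM, a change of -1.38 ± 0.21 (adjusted p = 0.0131 by limma). The GGsTop libraries lay below the Vehicle libraries for each. With the GC correction 3 of the 16 fell. The count was 2 without GGsTop 1 and 3 without each of Vehicle 34, Vehicle 56, GGsTop 2 and GGsTop 3. Of the 16, 7 rose (beside 15.9% of all genes) and 3 fell (22.1%) in Vehicle against PBS, and 1 fell without PBS 3.

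Clock genes were read beside the targets, because glucocorticoid levels follow the time of day and Per1 is a target of both. Of 16 clock and output genes, 7 rose (beside 6.9% of all genes tested) and 3 fell (1.81%) with GGsTop against Vehicle, and the summed level was 104 to 134 FPKM in PBS, 125 to 137 FPKM in Vehicle and 232 to 316 FPKM in GGsTop libraries. Nr1d1 was 1 of the 7, and the study had already named it as higher with GGsTop in these same data. The output factor Dbp was at 16.9 to 27.0 FPKM in GGsTop, 3.15 to 5.30 FPKM in Vehicle and 0.54 to 2.52 FPKM in PBS libraries, a log2 fold change of 2.07 ± 0.26 against Vehicle (adjusted p = 0.0062 by limma). Per2 was at 19.9 to 33.4 FPKM against 6.83 to 9.96 FPKM in Vehicle libraries, a change of 1.63 ± 0.17 (adjusted p = 0.0026 by limma), and Npas2, of the opposite phase, was lower, at -0.93 ± 0.20 (adjusted p = 0.024 by limma). With 1 library left out 5 to 7 clock genes rose, and 0 fell without GGsTop 1 and 1 without Vehicle 34, Vehicle 56, Vehicle 78 or GGsTop 3. The GGsTop libraries, which stood apart in these genes, were those in which Fkbp5 and Hif3a were high. In Vehicle against PBS, 4 of the 16 rose (beside 15.9% of all genes) and 2 fell (22.1%). Without PBS 3, 1 rose and 0 fell. Dbp was higher in Vehicle than in PBS libraries, at 1.24 ± 0.28 (adjusted p = 0.0082 by limma). The time of tissue collection is not given in the labels, and the part of the clock in the differences of Fkbp5, Hif3a, Per1, Tsc22d3 and Klf9 was not tested.

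The likeness of patterns was measured as the mean absolute difference between z-scored log2(FPKM + 1) values over the 11 libraries, in SD units, and is a description of libraries that share groups and GC content. For Fkbp5 the nearest of all tested genes were Ttll6 at 0.28, Prg2 at 0.29, Fam167a at 0.34, Slc46a3 at 0.35 and Hes6 at 0.36, beside a median of 1.12 over all genes. For Tsc22d3 they were Bri3 at 0.19, Ddit4 at 0.26, Klf9 at 0.28, Nr1d2 at 0.30 and Txnip at 0.30, beside a median of 1.098. Ddit4 and Klf9 are known glucocorticoid targets, and Nr1d2 is a clock gene. Prg2 is an eosinophil marker that was called higher in both OVA/LPS groups than in PBS. It was the 1 called of the 4 eosinophil markers tested, and the other 3 were not called in either comparison. Of all genes tested, 15.9% rose in Vehicle and 2.06% in GGsTop against PBS. Between Vehicle and PBS the change was -0.44 for Siglecf, 0.16 for Ear2 and 0.75 for Ccr3. The part of eosinophils in the pattern of Fkbp5 was not tested. Within the 10, the closest pairs were Tsc22d3 with Klf9 at 0.28 and Fkbp5 with Hif3a at 0.44, and Nr3c1 with Hif3a was the farthest at 1.63. The 5 nearest genes of Fkbp5 and of Tsc22d3 had none in common.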

How the data were processed

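RNA-seq of 11 airway libraries was analysed, in the PBS group and the OVA/LPS groups with vehicle or GGsTop, as labelled. The authors deposited FPKM per Ensembl gene, 1 column per library, without symbols or coordinates. The submitters' processing notes name cutadapt 1.15, HISAT2 2.0.5, HTSeq 0.9.1 and the mouse build mm39, and whether counting used strand is not given in the sources used here. Symbols were matched for 21795 of 21899 genes, and exon lengths and GC content came from GENCODE on GRCm38. Multiplied by these lengths, the FPKM were whole multiples of 1 fragment in every library for 97.7% of genes, which gave the depth. The tolerance was 0.01 fragments for low counts and grew in proportion to higher counts, so that the rule says little for high counts.

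The values log2(FPKM + 1) were fitted over all 3 groups with limma 3.58.1 (R 4.3.3, empirical Bayes with trend), leaving out genes whose mean over libraries was under 0.5 FPKM. Two-sided p-values were corrected over the 14004 genes by Benjamini-Hochberg, with the threshold for a call at 0.05. Fold changes on this scale understate those of low genes. For the GC correction, a spline of 5 degrees of freedom on GC content was subtracted in each library. The fit was tested on simulated data.

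Replicate numbers are shared by PBS and OVA/LPS/GGsTop. The deviations of same-numbered libraries correlated at 0.37, 0.43 and 0.43 for numbers 1, 2 and 3, so the numbers were taken to pair the libraries, although PBS 1 and GGsTop 3 correlated at 0.46 and no label states a shared batch. The blocked fit used replicates 1 to 3.

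The genes and lists were chosen with earlier results of these data known. Named are the 10 genes, the 3 genes of each list with the smallest p in GGsTop against Vehicle and in Vehicle against PBS, and the 5 nearest genes to Fkbp5 and Tsc22d3. The result of 1 list under this rule is not reported here. Alternatives were the pseudocount, the filter, scaling, the trend, robust and weighted fits, 2 groups only, voom, the GC correction, the block and each library left out. The fit without the block on the same 6 libraries was chosen after seeing the data. Python 3.11.15 with pandas 2.3.3, numpy 2.4.6 and matplotlib 3.10.9 made the tables and plots.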

Additional observations from a re-analysis of the deposited data

How the results depend on the processing

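Of 577 log2 fold changes recomputed for the 10 genes, 510 kept their direction and side of the threshold, 37 lost the call, 14 gained it and 16 changed sign. With GGsTop against Vehicle, 1 gene was called with a minimum mean of 1 FPKM, which leaves Hif3a untested, against 2. After the GC correction 1 was called, which was Hif3a, and with 1 library left out 0 to 2 were called. In Vehicle against PBS the count was 3 to 5 with 1 library left out, against 4. For GGsTop against PBS it was 7 with array weights, 2 with only the 2 groups, 1 with the replicate block, 1 without the block on the same 6 libraries, and 0 to 6 with 1 library left out, against 4. Changes that crossed 0 were small. With GGsTop against Vehicle, Sgk1 was 0.037 with the same FPKM total, 0.080 with array weights and -0.16 to 0.12 with 1 library left out, Klf9 was 0.067 with the same total, 0.018 after the GC correction and -0.17 to 0.074 with 1 library left out, and Hsd11b1 was -0.020 to 0.34 with 1 library left out. In Vehicle against PBS, Hif3a was -0.018 with the same total and -0.0048 to 0.054 with 1 library left out, Nr3c1 was -0.15 after the GC correction, and Sgk1 was -0.13 to 0.076 with 1 library left out. In GGsTop against PBS, Sgk1 was 0.085 with the replicate block, 0.085 without it on the same libraries, 0.071 with the block and the GC correction, and -0.19 to 0.085 with 1 library left out. The cause was not tested. Nr3c1 passed for GGsTop against Vehicle with array weights (-0.34) and with only the 2 groups (-0.39).

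Scaling to the same FPKM total moved the median of all genes to 0.11 for GGsTop against Vehicle and -0.15 for Vehicle against PBS. Calls over all genes for GGsTop against Vehicle were 966 higher and 254 lower, but 344 and 354 at the same median and 2026 and 155 at the same total. In Vehicle against PBS they were 2231 and 3096, but 1232 and 4570 at the same total, and for GGsTop against PBS 288 and 115, but 250 and 243. With 1 library left out, 24 to 1052 genes were called for GGsTop against Vehicle against 1220, 3064 to 6440 for Vehicle against PBS against 5327, and 29 to 1597 for GGsTop against PBS against 403. On the 6 libraries that enter the replicate block, Tsc22d3 was the gene of the 10 called with the block and without it, so the block changed no call there, and the calls of Fkbp5, Klf9 and Hif3a were lost with the smaller set of libraries (adjusted p = 0.113, 0.139 and 0.18 without the block by limma). With 3 or 4 libraries a group, the values are compatible with any change inside the intervals given. Hif3a rested on 24 to 42 fragments per library outside the GGsTop group.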
